A study of Caenorhabditis elegans with 4 samples.

Results

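The regions described here are 344 places between protein-coding genes, away from their promoters. There, chromatin immunoprecipitation followed by sequencing (ChIP-seq) gave strong peaks for EGL-27 on the autosomes of Caenorhabditis elegans. They were chosen from the authors' pooled ce11 peak list, which holds 28056 peaks, by the authors' signal value. Peaks of ranks 1 to 2000 on that value were kept if they lay on an autosome, which left 1510. Of these, 344 had a summit, the highest point of the peak, outside every protein-coding gene body and outside a promoter window from 1000 bp upstream to 200 bp downstream of every protein-coding 5′ end. Their summits also lay over 400 bp from any tRNA, snoRNA or snRNA gene. Genes of other classes were not excluded, so some members lie inside such a gene. With the bodies of genes of every class but piRNA excluded, 309 members remained. The other autosomal peaks of these ranks were 668 promoter peaks, 330 gene body peaks and 168 peaks at those small RNA genes, and a further 4458 distal peaks ranked below 2000. Since the signal value and the place chose the members, their height and their distance from genes are a description and carry no test.

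All samples were whole worms at the larval stage L3, of mixed sex, from strain OP177, with 4 biological replicates in 1 group. The strain is unc-119(ed3) with the transgene wgIs177, from which EGL-27 is stably made with GFP-FLAG fused to its C terminus. The number of egl-27 copies the transgene adds, its extent and whether the control DNA came from the same strain is not stated in the sources used here. Whole worms mix all tissues, so a peak can come from any of them.

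EGL-27 belongs to the MTA family, whose members are subunits of the NuRD complex, which joins nucleosome remodelling to removal of histone acetyl groups. It carries a GATA-type zinc finger, and in worms it is known for roles in cell polarity, cell migration and Hox gene patterning. Distal intergenic peaks are of interest in worms because most regulatory sequence lies close to 5′ ends, and places far from a gene start are often called candidate enhancers. In Drosophila, repeats of GA are bound by the GAGA factor. GATAA is the core read by GATA-type zinc fingers.

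Windows of 50 bp to each side of the summit show what the members look like. The set below holds the 6 members that lie within 200 bp of a strong peak of every replicate (strong meaning as many top peaks as the authors' final list holds), then members with a GA repeat that the later paragraphs return to. They are the + strand of ce11, from RefSeq, with every GAGAGAG or CTCTCTC and every GATAA or TTATC in capitals.
Y37A1A.2, chrIV:13919370-13919470: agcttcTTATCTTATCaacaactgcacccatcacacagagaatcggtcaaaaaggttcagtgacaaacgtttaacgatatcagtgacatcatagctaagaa
ogt-1, chrIII:7155767-7155867: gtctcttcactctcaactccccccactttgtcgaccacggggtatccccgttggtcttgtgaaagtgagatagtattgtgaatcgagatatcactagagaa
fos-1, chrV:6000450-6000550: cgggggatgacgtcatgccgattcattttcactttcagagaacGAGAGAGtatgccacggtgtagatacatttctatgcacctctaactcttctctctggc
fos-1, second member, chrV:6000650-6000750: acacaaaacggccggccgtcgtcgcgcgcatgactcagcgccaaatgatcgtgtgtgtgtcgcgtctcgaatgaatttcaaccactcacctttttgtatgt
irld-18, chrIV:14594375-14594475: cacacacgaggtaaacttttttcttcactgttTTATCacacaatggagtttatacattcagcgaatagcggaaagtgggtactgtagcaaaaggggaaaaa
C08E8.3, chrV:18346200-18346300: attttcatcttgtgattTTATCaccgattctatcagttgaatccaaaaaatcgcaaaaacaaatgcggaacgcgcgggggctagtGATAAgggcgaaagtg
Y17G7B.17, chrII:12102516-12102616: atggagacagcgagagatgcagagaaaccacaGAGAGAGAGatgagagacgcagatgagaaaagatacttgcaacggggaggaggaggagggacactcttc
din-1, chrII:11635852-11635952: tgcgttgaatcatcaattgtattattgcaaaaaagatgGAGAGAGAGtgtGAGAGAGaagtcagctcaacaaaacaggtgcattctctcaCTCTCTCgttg
egl-27, chrII:6827527-6827627: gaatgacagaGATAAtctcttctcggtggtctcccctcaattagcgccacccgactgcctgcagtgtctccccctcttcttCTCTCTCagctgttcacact
mir-53 and hrg-5, chrIV:11027796-11027896: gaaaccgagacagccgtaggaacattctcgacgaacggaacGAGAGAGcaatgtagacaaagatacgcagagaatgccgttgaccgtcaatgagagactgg
affl-2, chrIII:433053-433153: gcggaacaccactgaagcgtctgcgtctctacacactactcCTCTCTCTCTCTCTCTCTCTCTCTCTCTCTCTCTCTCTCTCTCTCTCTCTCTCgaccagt
Among the first 6 windows, 3 hold GATAA and 1 holds GAGAGAG, and the ogt-1 and second fos-1 windows hold neither. The affl-2 window holds the longest alternating GA tract of any member, 53 bp.

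The strongest distal member lay 6391 bp upstream of Y37A1A.2 on chromosome IV, in a gap of 21356 bp, and ranked 15 in the pooled list with a signal value of 99.5. It ranked 38, 36, 19 and 12 in replicates 1 to 4. The next lay 2020 bp upstream of ogt-1, the gene of the O-GlcNAc transferase, and ranked 2, 145, 41 and 181 in replicates 1 to 4. These 2 places were thus among the strongest peaks of each replicate. The member 3101 bp upstream of fos-1, which encodes a Fos-family transcription factor used by the anchor cell to invade, ranked 27, 369, 34 and 14. A second member lay 2901 bp upstream of fos-1, 200 bp from the first, so that both can match the same replicate peak. Its own pooled rank was 1914. The member 13386 bp upstream of irld-18, a gene with insulin-receptor-like L domains, was the farthest of all from a 5′ end and ranked 43, 117, 113 and 417. The member near C08E8.3 ranked 203, 198, 102 and 144.

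Most of the other members among the 15 highest were missing from a replicate or far down its list. The one near Y17G7B.17 was in all 4, with ranks of 109, 625, 963 and 86. The one upstream of aakg-1, an AMP-activated kinase gamma subunit, ranked 30, 399 and 453 in replicates 1, 3 and 4 and had no summit within 200 bp in replicate 2. The one near cmd-1, the calmodulin gene, ranked 436, 44 and 42 in the same 3 replicates. The 2 members near F54F12.1 of pooled ranks 85 and 98, and those near nhr-88, nhr-162 and chd-7, a chromodomain helicase gene, also had no summit in replicate 2. Upstream of din-1, a corepressor gene that works with the nuclear receptor DAF-12, the member ranked 54, 842, 68 and 6239. The 3 nuclear hormone receptor genes among these 15 are nhr-10, nhr-88 and nhr-162. Replicate 2, with the shortest list, lacked 7 of the 15.

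**Figure D1:**
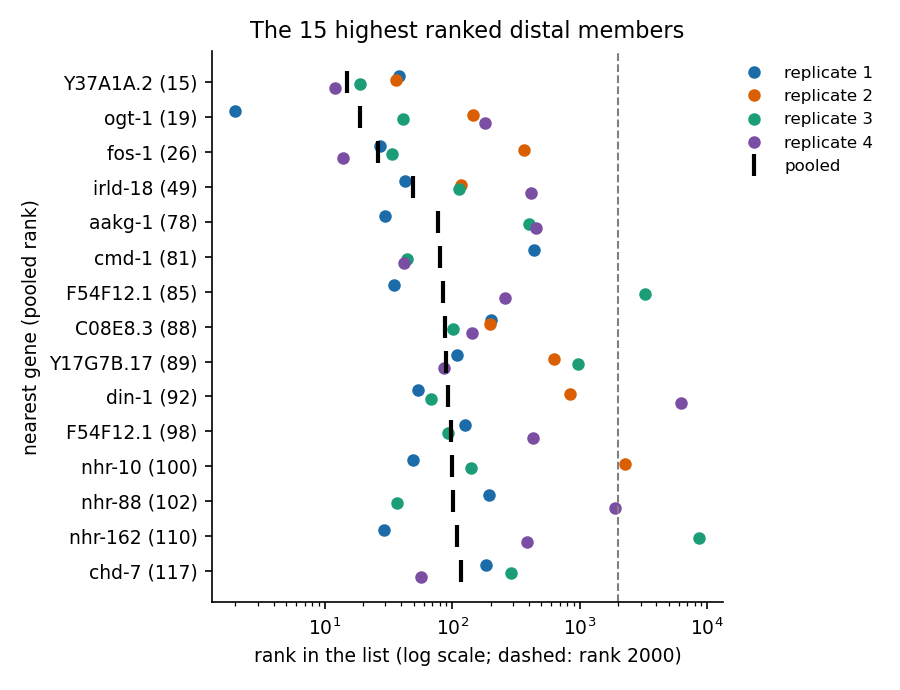
Rank of the 15 highest ranked distal members (rows, named by nearest gene with the pooled rank) in each replicate's list (coloured points) and in the pooled list (black bars), on a log axis. A missing point means no summit within 200 bp; Y37A1A.2 ranks 38, 36, 19 and 12 in replicates 1 to 4, while din-1 spans 54 to 6239.

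A summit within 200 bp was present for 95.6%, 41.6%, 77.0% and 72.1% of the 344 members in replicates 1 to 4, a mean of 71.6% ± 22.4 (SD, n = 4). For promoter peaks of the same ranks the shares were 96.3%, 42.5%, 79.0% and 74.9%. The lists held 30000, 6602, 19304 and 12990 peaks, so the order of the shares is the order of list length, and the read depth behind them is unknown. In all 4 replicates 78 members (22.7%) had a summit, and 24% of all 1510 autosomal peaks of these ranks did. The members' share is near that background. The pool contains these replicates, so this recovery is no independent check. Within the 2000 strongest peaks of each replicate, 15 members (4.36%) were found in all 4. The other classes were close, also on few peaks: 5.84% of promoter peaks (39 of 668), 6.97% of gene body peaks (23 of 330) and 5.95% of peaks at the small RNA genes (10 of 168). Members stood lower in the pooled list than promoter peaks, with median ranks of 1144 and 958, so no trait of the class is read from these shares. Of the members, 125 were found in exactly 1 of these top 2000 lists and 22 in none, counts with no share of other peaks beside them. Of the members, 117 were in the authors' final list, made by the irreproducible discovery rate (IDR), and 227 were outside it. Those inside were the 117 highest ranked members, so the count follows pooled rank and is no separate check. No share of other peaks stands beside it.

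When the same rule was applied to each replicate's own list, 378, 328, 327 and 366 distal peaks were found in replicates 1 to 4, a mean of 349.8 ± 26.2 (SD, n = 4). They made up 22.8% ± 1.83 of the autosomal peaks of ranks 1 to 2000, against 22.8% in the pooled list. The comparisons below use these own-list peaks, taking each difference within a replicate. With 4 replicates the exact two-sided sign-flip permutation test cannot go below p = 0.13 (1 in 8), so no difference here can pass 0.05.

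Repeats of GA near the summit were more frequent in distal peaks than in promoter peaks in every replicate. GAGAGAG, searched on both strands within 50 bp, was in 18.5%, 7.32%, 15% and 13.1% of distal peaks in replicates 1 to 4, against 10.8%, 4.53%, 8.15% and 8.75% of promoter peaks. The distal share was higher in 4 of 4 replicates, by 5.43 ± 2.27 percentage points (SD, n = 4; exact sign-flip permutation p = 0.13, adjusted p = 0.143 over 8 tests). The groups overlap across replicates: the distal share of replicate 2 is below the promoter share of the other 3. Gene body peaks held it at 15.3%, 4.28%, 7.48% and 9.39%, and the distal share was higher in 4 of 4 replicates by 4.36 ± 2.11 points (exact permutation p = 0.13, adjusted p = 0.287 over 39 tests). Distal peaks below rank 2000 held it at 4.01%, 3.26%, 3.96% and 4.61%, lower than the stronger distal peaks in 4 of 4 replicates, with a difference of 9.52 ± 4.40 points (SD, n = 4; exact permutation p = 0.13, adjusted p = 0.143). Cutting the autosomal distal space into 183573 tiles as long as these windows put GAGAGAG in 1.70% of them. Of 17242 autosomal promoters, 2.70% held it in a window of that length ending at the 5′ end. These promoter windows are not centred on peaks, so they are not a background for the places of the promoter peaks.

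**Figure D2:**
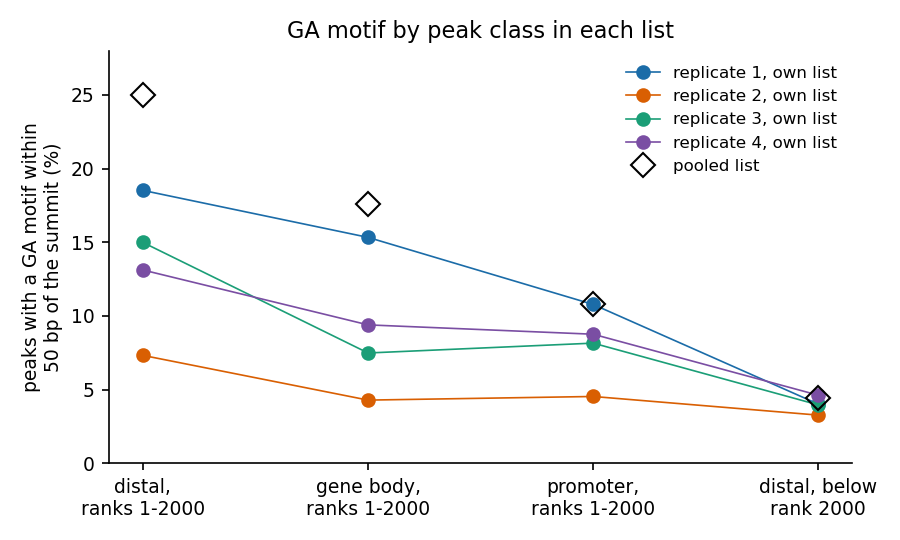
Share of peaks (%) with GAGAGAG on either strand within 50 bp of the summit, by peak class, in each replicate's own list (points joined by replicate) and in the pooled list (diamonds). In each replicate the distal peaks of ranks 1 to 2000 lie highest, between 7.32% and 18.5%; the pooled distal value of 25% lies above all of them.

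In the pooled list itself, 86 of the 344 members (25%) held GAGAGAG, 17.6% of gene body peaks and 10.8% of promoter peaks did, and 14.7% of all 1510 autosomal peaks of these ranks did. That pooled share depends on where the rank limit falls. In pooled ranks 1501 to 2000, just inside the limit, 22 of 94 distal peaks (23.4%) held the motif. In ranks 2001 to 2500, just outside it, 7 of 98 (7.14%) did, although the signal value was continuous there (16.49 inside, 16.47 outside). The share was level on either side, from 22.8% to 26.9% in the 4 bins of 500 ranks inside and from 6.06% to 8.11% between ranks 2001 and 4000. In ranks 2001 to 2500 the classes stood the other way round, with 12.3% of promoter peaks holding the motif. Pooled gene body peaks held it at 19.6% in ranks 1501 to 2000 and 9.24% in ranks 2001 to 2500. Their share was not level on either side, however, with 10.6% in ranks 1001 to 1500 and 15.2% in ranks 2501 to 3000.

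The replicates' own lists showed no such step. Between their ranks 1501 to 2000 and 2001 to 2500 the distal share was 11.2% and 13.3% in replicate 1, 8.33% and 6.17% in replicate 2, 10.3% and 12.5% in replicate 3, and 8.42% and 14.6% in replicate 4. In replicate 1 it declined along rank, with 33.8% in ranks 1 to 500 and 7.92% in ranks 2501 to 3000, and the other replicates also had their lowest values past rank 2500. Over distal, promoter and gene body peaks together the pooled share was 15.6% (54 of 347) in ranks 1501 to 2000 and 9.95% (37 of 372) in ranks 2001 to 2500. The cause of the pooled step was not tested. The limit of 2000 was set with results of these data known, so the pooled 25% should be read with the values just outside it.

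**Figure D3:**
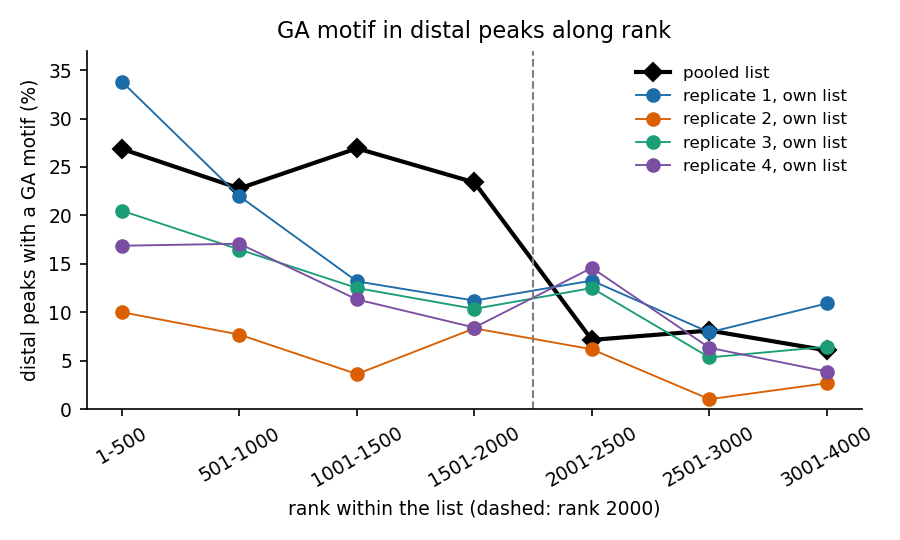
Share of distal peaks (%) with GAGAGAG within 50 bp of the summit along rank, in the pooled list (black) and in each replicate's own list (coloured), with rank 2000 dashed. The pooled share is 23.4% just inside the limit and 7.14% just outside it; the replicate lists have no step there.

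The motif was also near the summits that the replicates placed themselves. Where a replicate had a summit within 200 bp of a member, GAGAGAG lay within 50 bp of that summit at 25.8%, 21%, 23.0% and 25.8% of the places in replicates 1 to 4. The replicate and pooled summits were a median of 19 to 41.5 bp apart. At the promoter peaks of the same pooled ranks these shares were 10.4%, 9.86%, 8.90% and 10.4%. At distal peaks of pooled ranks 2001 to 4000 they were 6.11%, 5.48%, 9.36% and 9.14%. Since the pooled ranking chose these places, the values are a description.

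Around the members' pooled summits, the share of bases inside GAGAGAG was 3.63% in the 25 bp starting at the summit. It was 0.0814% in the 25 bp starting 400 bp to the left and 0.209% in the 25 bp starting 375 bp to the right. Promoter peaks held 1.08% in the 25 bp starting at the summit and were highest, at 1.38%, in the 25 bp just left of it. The members' share was also 2.71% in the 25 bp starting 125 bp to the left and 2.97% in the 25 bp starting 75 bp to the right. In the members the motif was thus denser within about 100 bp of the summit than about 400 bp away, without being focused on the summit itself.

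**Figure D4:**
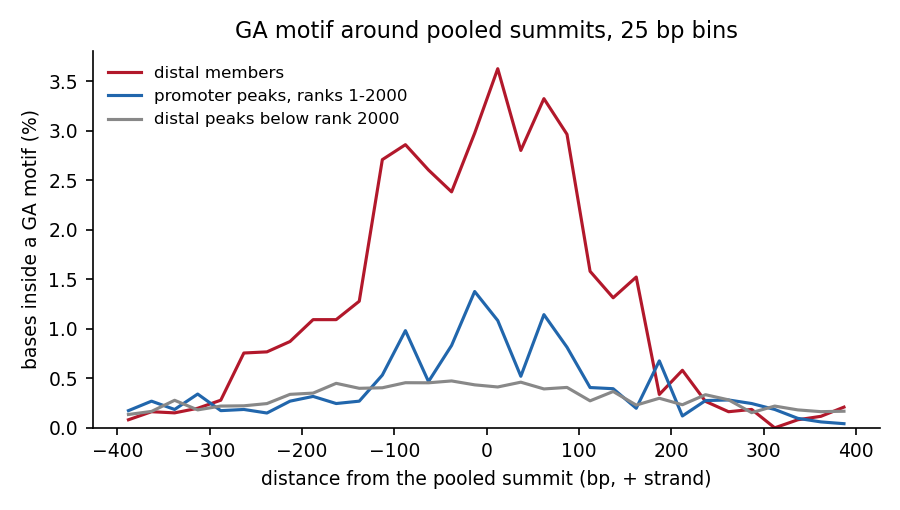
Share of bases (%) inside GAGAGAG or its reverse complement against distance from the pooled summit (bp), for the 344 members, 668 promoter peaks of ranks 1 to 2000 and 4458 distal peaks below rank 2000. The members' share is 3.63% in the 25 bp starting at the summit, against 1.08% for promoter peaks.

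An alternating GA tract of at least 11 bp was present in 27 members and one of at least 21 bp in 4. No share of other peaks stands beside these counts, so they only describe the members. Members with the motif ranked like those without it: the median pooled rank was 1140.5 with it and 1144 without. Of the members with GAGAGAG, 73.3% lay on a chromosome arm, against 53.5% of the members without it, and 89.5% against 81.0% lay upstream of the nearest 5′ end. Of all members, 16 held both GAGAGAG and GATAA, likewise without a share of other peaks beside it.

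The core GATAA was in 23.8%, 25%, 28.4% and 23.5% of distal peaks in replicates 1 to 4, against 20.4%, 20.3%, 24.3% and 19.7% of promoter peaks. The distal share was higher in 4 of 4 replicates, by 4.03 ± 0.55 percentage points (SD, n = 4; exact sign-flip permutation p = 0.13, adjusted p = 0.143). The difference from promoter peaks depended on the settings. It was 1.24 ± 1.20 points with 100 bp to each side of the summit (exact permutation p = 0.25). It was 1.85 with ranks 1 to 4000 and 9.89 when the lists were cut at the length of the IDR list. In ranks 2001 to 2500, just outside the rank limit, the direction reversed in replicates 1 to 4. There 28.6%, 16.0%, 28.4% and 28.1% of distal peaks held GATAA, against 35.1%, 20.2%, 33.6% and 31.5% of promoter peaks. The pooled shares there were 25.5% and 29.7%. In ranks 2501 to 3000 the distal share was higher in the pooled list and in replicates 1, 3 and 4, but not in replicate 2. In the pooled list 89 members (25.9%) held GATAA, and 20.7% of the 1510 autosomal peaks of the members' ranks did. A short motif is frequent by itself: 20.4% of the distal tiles and 28% of the promoter windows held GATAA.

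The other 12 patterns searched gave smaller differences from promoter peaks. CACGTG, the E-box read by several helix-loop-helix proteins, was in 4.40% ± 1.08 of distal peaks and 3.14% ± 0.26 of promoter peaks (SD, n = 4 each), higher in 4 of 4 replicates (exact permutation p = 0.13, adjusted p = 0.287 over 39 tests). CTGTTTC was in 4.00% ± 1.14 of distal peaks and 2.08% ± 0.58 of promoter peaks, also higher in 4 of 4. GAANNTTC, a spaced pair of the heat shock element's units, was in 4.67% ± 1.14 of distal peaks and 5.99% ± 0.78 of promoter peaks, lower in 4 of 4 by 1.32 points, with the same exact permutation p and adjusted p. Runs of 8 A or T were in 8.44% ± 2.55 and 6.67% ± 0.43, higher in 4 of 4. GGGCGG was in 3.82% ± 0.95 and 4.59% ± 1.05, lower in 4 of 4. Against gene body peaks the distal share was higher in 4 of 4 replicates for CTGTTTC and GGGCGG and in 2 of 4 for GAANNTTC and the runs. For CACGTG it was higher in 1 of 4, with gene body peaks at 5.21% ± 1.64. In the pooled list GGGCGG went the other way, in 2.91% of members and 5.76% of gene body peaks.

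The sequence at distal peaks was slightly poorer in G and C than at promoter peaks and richer than at weaker distal peaks. GC content within 50 bp averaged 42.5%, 38.0%, 41.0% and 41.1% in distal peaks of replicates 1 to 4, against 43.8%, 39.3%, 41.1% and 42.2% in promoter peaks. The difference was −0.98 ± 0.57 percentage points (SD, n = 4), lower in 4 of 4 replicates, with −0.13 points in replicate 3 the nearest to 0 (exact permutation p = 0.13, adjusted p = 0.143). With 100 bp to each side it was 0.0361 points, the other way. Against distal peaks below rank 2000, which averaged 35.9% ± 0.51, the strong distal peaks were richer by 4.73 ± 1.47 points in 4 of 4 replicates (exact permutation p = 0.13, adjusted p = 0.143). The distal tiles averaged 34.4%.

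Bases that the reference marks as repeats made up 23.5% ± 2.82 of the distal windows and 24.5% ± 2.15 of the promoter windows (SD, n = 4 each), a difference of −0.98 ± 0.91 points with 1 of 4 replicates higher (exact permutation p = 0.25, adjusted p = 0.25). It was −0.61 points without replicate 3, −0.20 with ranks 1 to 4000 and −3.15 with 100 bp to each side. Distal peaks below rank 2000 held 33.4% ± 0.38, and the strong ones fewer in 4 of 4 replicates, with a difference of −9.96 ± 2.71 points (exact permutation p = 0.13, adjusted p = 0.143). Along the chromosomes, 56.6%, 63.1%, 56.0% and 61.2% of distal peaks lay on an arm, the outer part when a chromosome is cut in 3 equal lengths, against 52.7%, 55.7%, 52.6% and 52.4% of promoter peaks. Arms held more of the distal peaks in 4 of 4 replicates, by 5.87 ± 2.67 points (SD, n = 4; exact permutation p = 0.13, adjusted p = 0.143). It was 2.77 points with arms as the outer parts of 4 equal lengths and 3.78 with a promoter window of 500 bp, where the pooled list gave −0.11. Against distal peaks below rank 2000, of which 62.7% ± 1.33 lay on an arm, the difference went the other way, −3.50 ± 4.00 points with 1 of 4 replicates higher (exact permutation p = 0.25, adjusted p = 0.375 over 6 tests). Arms hold 69.7% of the distal tiles.

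The members lay a median of 2290 bp from the nearest protein-coding 5′ end, between 558 and 13386 bp, in gaps of a median 6278 bp. Of the members, 286 of 344 (83.1%) lay upstream of the nearest 5′ end, against 69.8% of distal peaks below rank 2000 and 65.8% of tiles. In the replicates' own lists the shares were 78.0%, 72.9%, 76.5% and 76.2%, against 70.6%, 72.8%, 70.0% and 69.8% below rank 2000. The difference was 5.11 ± 3.41 points in 4 of 4 replicates, with 0.0398 points in replicate 2 (exact permutation p = 0.13, adjusted p = 0.375 over 6 tests). Gaps with both flanking genes pointing outward held 129 members (37.5%), against 29.1% of the distal peaks below rank 2000 in the pooled list, but the replicates' own lists did not show this. There they held 31.3% ± 1.59 of strong and 31.0% ± 0.60 of weaker distal peaks (SD, n = 4 each; exact permutation p = 0.75, adjusted p = 0.875).

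By chromosome there were 59 members on I, 64 on II, 70 on III, 70 on IV and 81 on V, or 3.91, 4.19, 5.08, 4.00 and 3.87 per Mb. Of 281 gaps with a member, 241 held 1 and 11 held at least 3. The fullest gap, between snt-1 and egl-27 on chromosome II, held 9 members in 18574 bp. Synaptotagmin, which senses calcium in neurotransmitter release, is the product of snt-1. The gap ends at the 5′ end of egl-27, the gene that the strain also carries as a tagged transgene.

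The 9 members there lay between 1105 and 13701 bp upstream of the egl-27 5′ end. The highest, 7431 bp upstream, ranked 386 in the pooled list with a signal value of 31.7, and ranked 295, 811 and 355 in replicates 1, 3 and 4. Another, 12419 bp upstream, ranked 535 in the pooled list and 1072, 427 and 309 in the same replicates. Replicate 2 matched 1 of the 9, against 8 in replicate 1, 7 in replicate 3 and 6 in replicate 4. Signal from a copy of this region in the transgene, if it carries one, and signal from the gene's own place cannot be told apart. Without the gap, 335 members remained, of which 25.1% held GAGAGAG and 83.6% lay upstream of the nearest 5′ end.

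**Figure D5:**
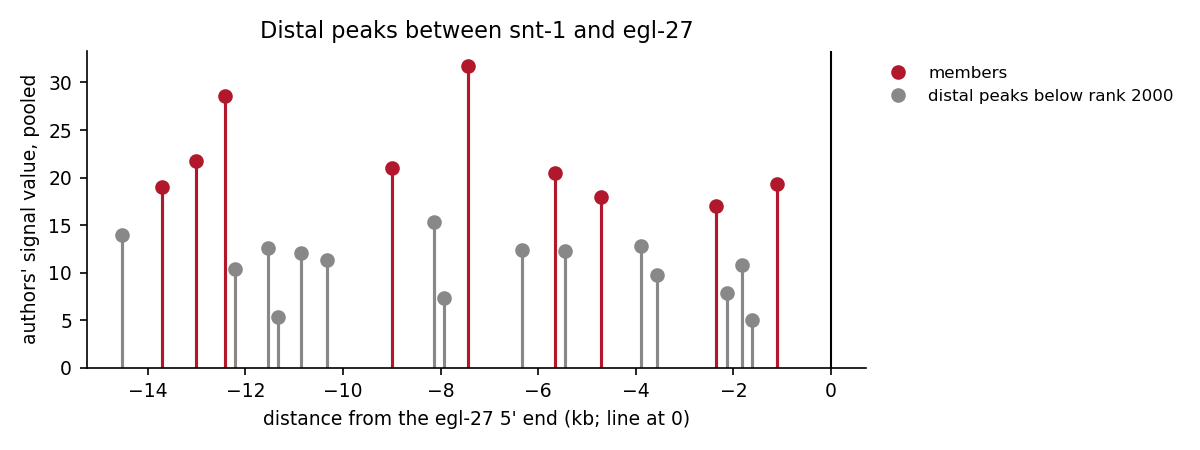
Authors' signal value in the pooled list of each distal peak between snt-1 and egl-27 against distance from the egl-27 5′ end (kb). Members are red and distal peaks below rank 2000 grey; the 9 members lie between 1105 and 13701 bp upstream and reach 31.7.

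The flanking genes pointed outward in the next fullest gaps. That between F54F12.1 and Y39E4B.6 on chromosome III held 5 members of ranks 85 to 1241, 2 of them found in all 4 replicates. That between asp-13, an aspartyl protease gene, and ZC190.4 on chromosome V also held 5. Gaps with 4 were those between saeg-1 and F32D8.1, and between lpin-1, the lipin gene, and letm-1. No member of these 4 gaps held GAGAGAG. All 3 members between rho-1, a small GTPase gene, and zip-7 held it, and so did 2 of the 3 between tig-3 and rga-9. The 2 with the motif lie 5022 and 4811 bp from the rga-9 5′ end and share replicate peaks in replicates 3 and 4, so they may be 1 place. The remaining gaps with 3 were sup-26 to R10E4.3, T23E1.1 to Y67D8B.1, nhr-46 to C31H1.2 and K08B12.3 to dmd-7, with none.

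After irld-18, the members farthest from a 5′ end were 12752 bp from that of C31H1.2, 12211 bp from that of K01F9.2, and 11626 and 11025 bp from that of snt-1. The first of these ranked 496, 1016 and 351 in replicates 1, 2 and 4 and was not found in replicate 3. At the limit, the last members inside were near asp-13, K12H6.6, tax-6, toh-1 and myrf-1, with signal values from 16.56 down to 16.49. The first distal peaks outside were near C03B8.3, F26A3.4, Y22F5A.11, fkb-2 and ttr-41, with values from 16.47 down to 16.40. Of these, K12H6.6 held GAGAGAG.

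Some members lay by non-coding genes. Genes of the annotation class ncRNA lay within 400 bp of 59 members (17.2%), against 11.0% of the distal peaks below rank 2000. Pseudogenes lay that close to 8 members (2.33%), against 8.39% of the weaker distal peaks. For piRNA genes it was 16 members (4.65%), against 7.16%. Within 400 bp of 5 members (1.45%) was a microRNA gene, against 0.493% of the distal peaks below rank 2000. The member near mir-53, of pooled rank 1237, lay 155 bp upstream of it, held GAGAGAG and ranked 885, 1157 and 541 in replicates 1, 2 and 4. That near mir-52, which belongs to the same microRNA family, lay 254 bp upstream and ranked 1308, 816 and 752 in the same replicates. Neither had a summit in replicate 3. A member lay 387 bp upstream of mir-1, the muscle microRNA, 1 lay 93 bp upstream of mir-60, and 1 lay 353 bp downstream of mir-80. LincRNA genes lay within 400 bp of 8 members (2.33%), against 1.70% of the distal peaks below rank 2000, the highest members being inside linc-128 at rank 81 and inside linc-91 at rank 117. The 1 inside linc-128 is the member near cmd-1. No antisense RNA or rRNA gene lay within 400 bp of a member, and few lay that close to the weaker peaks (0.0673% and 0.0224%).

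Among neighbours, the nuclear hormone receptor genes were nearest for 15 members (4.36%) at 13 genes, against 106 of the 4458 distal peaks below rank 2000 (2.38%). Chemoreceptor genes were nearest for 5 members (1.45%), against 155 of the weaker distal peaks (3.48%). NuRD subunit genes were nearest for 8 (2.33%), against 17 of the weaker distal peaks (0.381%). Of the 8, 6 were at egl-27 itself, with the others at let-418, a Mi-2 helicase gene, and dcp-66. Most of the 17 weaker peaks were also at egl-27, so the contrast describes mainly that 1 place and not NuRD genes as a group. Signal from the transgene cannot be told apart there. Ribosomal protein genes were nearest for 3 (0.872%), at rpl-31, rps-25 and rps-28, against 17 of the weaker distal peaks (0.381%). Of the heterochronic genes, which time larval development, lin-41 was nearest for 1 (0.291%), against 3 of the weaker distal peaks (0.0673%) for the whole list. F-box, C-type lectin and collagen genes were each nearest for 1 member (0.291%), against 0.695%, 0.449% and 0.740% of the weaker distal peaks. Hox, Wnt and Frizzled, GATA factor, ceh homeobox and histone genes were nearest for no member, against 0.381%, 0.135%, 0.135%, 0.538% and 0.0224% of the weaker distal peaks. Since 1 member is 0.291%, a count of 0 at shares this low does not show an absence. Nearness of a 5′ end does not show which gene a place acts on.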

How the data were processed

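EGL-27 ChIP-seq peaks were measured in 4 biological replicates, numbered as in the labels. Per the deposited read-me texts, the authors called peaks and background for each replicate and for the pool against 1 shared control. The sources used here do not state the aligner, caller or thresholds. The score that the authors deposited for a peak, their signal value, has no stated scale and served for ranking inside each list. The other deposited columns used are coordinates and summit offsets on ce11, which is WBcel235. The ce10 lists were not used. Read depth is unknown, so no counting interval is given. Positions are 1-based.

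Genes came from Ensembl release 115 and bases from RefSeq. The rule was applied to the pooled list for the members and to each replicate's own list for the tests. Motif searches covered either strand in windows of 101 bp centred on summits. For all autosomal promoters the window was the 101 bp just upstream of the protein-coding 5′ end. The multicopy share is the share of the 32 bp words of a window that are found more than once in the genome, averaged over windows. Each difference was tested over the 4 replicates by an exact two-sided sign-flip permutation test, with Benjamini-Hochberg adjustment over the 8 main tests, 39 further motif tests and 6 added tests. The replicates share a control, and peaks are not replicates. The members, lists, motifs and rank limit were chosen with earlier results of these data known. The members named are the 15 highest ranked, the 5 on either side of the limit, the 5 farthest from a 5′ end, those in gaps of at least 3, those among the strongest peaks of all replicates and those near microRNA or lincRNA genes. Others named were chosen after their values were seen. Alternatives were other rank limits, promoter windows, RNA gene distances, gene bodies, sequence windows and summit distances, and leaving out each replicate. Python 3.11.15, numpy 2.4.6, scipy 1.17.1, pandas 2.3.3 and matplotlib 3.10.9 were used, and the search, matching and test were checked on simulated data.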

Additional observations from a re-analysis of the deposited data

Results flagged for a closer look

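In 4 of the 25 quantities looked at over the 4 replicates, 1 replicate lay far from the others by Dixon's ratio, a test that chance passes in about 1 in 20 groups. The GC difference between distal and promoter peaks was −0.13 percentage points in replicate 3, nearest to 0. Replicate 2 had 14% of its distal peaks in gaps with both flanking genes pointing inward, above the other replicates. It also had the fewest promoter peaks among its 2000 strongest, 508. In replicate 4, 0.855% of the 32 bp words near distal summits were found more than once in the genome, the highest of the 4.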

How the results depend on the processing

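In the replicates' own lists, the mean differences of the 8 main tests kept their direction under all alternatives and without each replicate. The exception was GC content against promoter peaks, which was 0.0361 percentage points with 100 bp to each side of the summit. Single replicates did not always keep it. Against promoter peaks, not all 4 went 1 way for GAGAGAG at rank 4000 (exact permutation p = 0.25) or GC with 2000 bp upstream windows (exact permutation p = 0.375). The same held for the arm share with the 500 bp window and GATAA with 100 bp to each side (exact permutation p = 0.25 each). No alternative could pass 0.05, so keeping a direction says nothing about significance. Without 1 replicate, the GC difference from promoter peaks ran from −1.26 to −0.85 points and from weaker distal peaks from 4.21 to 5.38. The GAGAGAG difference ran from 4.66 to 6.31 points against promoter peaks and from 7.86 to 11.3 against weaker distal peaks. It was 9.38 and 3.49 points against promoter peaks with each own list cut at the length of the IDR list and at rank 4000. The arm difference in the pooled list, 3.94 points, was −0.11 with the 500 bp promoter window. The GATAA difference ran from 3.80 to 4.23 points, the repeat difference from promoter peaks from −1.33 to −0.61 and from weaker distal peaks from −11.1 to −9.08, and the arm difference from 4.88 to 6.72 without 1 replicate. In the pooled list the GAGAGAG difference was 13 points at the length of the IDR list, 14.2 at rank 2000 and 6.03 at rank 4000. The number of members was 117 at the length of the IDR list, 751 at rank 4000 and 207 with 2000 bp upstream windows. The mean share of members with a replicate peak was 25.4% among as many strongest peaks of each replicate as the IDR list holds and 44.7% among 2000, and from 63.6% to 81.6% without 1 replicate. Alternatives added after seeing the data were transcript 5′ ends, promoter peaks weighted by rank, and leaving out the region from snt-1 to egl-27. No paired analysis was possible because there is no second group of samples to pair; the main tests already take each difference between peak classes within a replicate.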
